A study of Mus musculus with 18 samples.

Results

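*Olfr78* and *Olfr558* are odorant receptor genes, and *Omp*, *Gnal*, *Adcy3* and *Ric8b* are genes of the odorant signalling machinery with which such receptors work in the nose. The 6 genes were taken by symbol from both deposited tables, where each has 1 row among 52636 gene rows, and their levels were followed across sorted colon epithelial cells and colon crypts of all genotypes.

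In an olfactory sensory neuron, an odorant receptor activates the G protein alpha subunit Golf (*Gnal*), Golf activates adenylyl cyclase 3 (*Adcy3*), and the cAMP made there opens a cyclic nucleotide-gated channel. Ric8b is a chaperone and exchange factor of Golf, and Omp, the olfactory marker protein, is a small cytosolic protein abundant in mature olfactory neurons. Outside the nose, *Olfr78* and *Olfr558* are known as receptors that respond to short-chain fatty acids, products of bacterial fermentation in the colon.

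Bulk RNA was measured in 18 libraries of mouse colon. Sorted cells gave 6 libraries: 2 Epcam+ve/GFP-ve samples, both from 1 WT mouse, 2 Epcam+ve/GFP+ve pools of heterozygous (HE, Olfr78 GFP/+) mice and 2 of homozygous (KO, Olfr78 GFP/GFP) mice, each pool from 2 mice. For these cells mice were 4 to 7 months old. Isolated crypts gave 12 libraries, 1 per mouse: in the Olfr78-GFP line 2 were WT and 5 KO, and in the Vil1Cre/+-Olfr78 fx line 3 were eControl and 2 eKnockout (eKO). The genotype labels of the eControl mice differ, being HE/WT for mice 1 and 3 and WT/HO for mouse 2. The Olfr78-GFP allele (B6;129P2) carries a GFP-IRES-tauLacZ cassette where the coding exon was, so it is a reporter and a loss of function at once, in every cell of the mouse. HE cells have both this allele and a WT allele. In the eKO line Cre is driven by *Vil1*, so the floxed gene is removed in epithelium only, and *Olfr78* is left in stromal and nerve cells, where both receptors are also expressed according to the study. In bulk samples, fewer cells of a type and less RNA per cell cannot be told apart.

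Values are CP20M, the reads on a gene scaled to 20000000 per library and rounded up. The sorted libraries held 532704 to 2237485 reads on genes and the crypt libraries 6175300 to 10995291, so that 1 read was worth 8.94 to 13.3 CP20M in sorted libraries other than KO pool 1, 37.5 in KO pool 1 and 1.82 to 3.24 in crypts. Cell identity held for the GFP+ve pools: the 13 markers of enteroendocrine cells, the hormone-secreting cells of the gut, summed to 314477 to 982474 CP20M there, against 12221 and 12437 in the Epcam+ve samples, although the labels give both the subtype enteroendocrine. Of the 10 markers of olfactory sensory neurons, 8 (*Cnga2*, *Cnga4*, *Stoml3*, *Rtp1*, *Rtp2*, *S100a5*, *Ano2* and *Gfy*) had 0 reads in all 6 sorted libraries.

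One label goes against another. The title of 1 crypt library reads eKnockout, mouse 2, but its genotype label, WT/HO, is that of eControl mouse 2, whereas the other eKnockout library is labelled HE/HO. In the study, eKO mice were Vil1Cre/+-Olfr78 fx/fx, and controls were either Vil1+/+-Olfr78 fx/fx or Vil1Cre/+-Olfr78+/+. The labels do not name their parts. If *Vil1* comes first, WT/HO is a control genotype without Cre and HE/HO is that of eKO. The library labelled eKO 2 had 73 CP20M of *Olfr78*, within the eControl range of 61 to 124. It was kept in the group its title gives, and results of the receptors and *Omp* that rest on it are also given without it.

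The receptor genes are neighbours on chromosome 7 of GRCm38. *Olfr558* (ENSMUSG00000070423) spans chr7:102702215-102712064 on the plus strand, and *Olfr78* (ENSMUSG00000043366) spans chr7:102738511-102759471 on the minus strand, 26.4 kb further on. Each has 1 coding exon: chr7:102709261-102710211 for *Olfr558* and chr7:102742042-102743001 for *Olfr78*, stop codon left out. The coding part makes up 15.9% of the 6033 exon bases of *Olfr78* and 31.3% of the 3041 exon bases of *Olfr558*, the rest being untranslated, so reads on *Olfr78* in KO mice need not come from the replaced exon. Which exons the reads lie on was not analysed here. Of the exon bases of *Olfr78*, 926 also belong to *Olfr560*, another odorant receptor gene on the same strand (chr7:102751818-102759366).

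The coding sequences of the pair are 62.9% identical over 972 aligned columns (GENCODE M21). Their longest shared run is shown here because reads of the coding exons that extend past it differ between the genes. The untranslated parts, most of the exon bases, were not compared. The run is 23 bases, bases 340 to 362 of the *Olfr78* coding sequence and 349 to 371 of that of *Olfr558*, in capitals within 89 bases of which 66 are identical.
Olfr78: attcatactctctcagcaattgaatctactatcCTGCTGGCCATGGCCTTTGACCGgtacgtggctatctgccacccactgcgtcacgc
Olfr558: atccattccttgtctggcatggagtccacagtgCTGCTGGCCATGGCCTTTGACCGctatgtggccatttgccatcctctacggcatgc

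Both receptors were abundant in GFP+ve cells and near the limit of detection in the epithelium at large. For *Olfr78*, 15 and 2 reads gave 135 and 21 CP20M in Epcam+ve samples, and 419 and 330 reads gave 4822 and 4401 in HE pools. The HE mean, 4612 ± 298 (SD, n = 2), was 59.1 times the Epcam+ve mean. For *Olfr558*, 1 and 6 reads gave 9 and 62 CP20M in Epcam+ve samples, and 138 and 151 reads gave 1588 and 2014 in HE pools, whose mean of 1801 ± 301 (SD, n = 2) was 50.7 times the Epcam+ve mean. The groups were far apart for both genes, while the 2 Epcam+ve samples, from the same mouse, differed from each other several-fold and in opposite directions for the receptors. For the markers *Chga*, *Chgb*, *Tph1* and *Pyy* of enteroendocrine cells the same ratio of means was 79.5, 71.3, 94.7 and 33.7. Per 1000 CP20M of *Chga*, *Olfr78* stood at 19.9 and 14.5 in HE pools and at 38.5 and 6.21 in Epcam+ve samples. *Olfr558* stood at 6.54 and 6.61 against 2.57 and 18.3. Relative to *Chga*, the HE pools thus lay within the Epcam+ve range for both receptors.

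On the log2(CP20M + 10) scale, which understates changes of low genes, *Olfr78* was higher in HE pools by 6.11 (SE 0.607, adjusted p = 0.000468 by limma) and *Olfr558* by 5.60 (SE 0.608, adjusted p = 0.000720 by limma). They were the 2 of the 6 genes, all of which passed the filter of 40 CP20M in at least 2 libraries, that were called at an adjusted p under 0.001 and a log2 fold change beyond 2. Of the 16355 genes tested 1.75% were called, and 1.58% were called higher. In all, 4 of the 6 genes lay higher in HE pools without overlap (*Olfr78*, *Olfr558*, *Omp* and *Ric8b*), as did 30.4% of genes. For *Omp* the gap was smaller than 1 read, with 94 CP20M from 7 reads in HE pool 2 and 93 CP20M from 9 reads in Epcam+ve sample 2. The cells were gated on GFP made from the *Olfr78* locus, so the gate used that locus, and not that of *Olfr558*. With a pseudocount of 1 or with no trend of the spread with expression neither was called (adjusted p between 0.00752 and 0.0190 by limma), with log2 fold changes of 5.60 to 6.40.

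**Figure D1:**
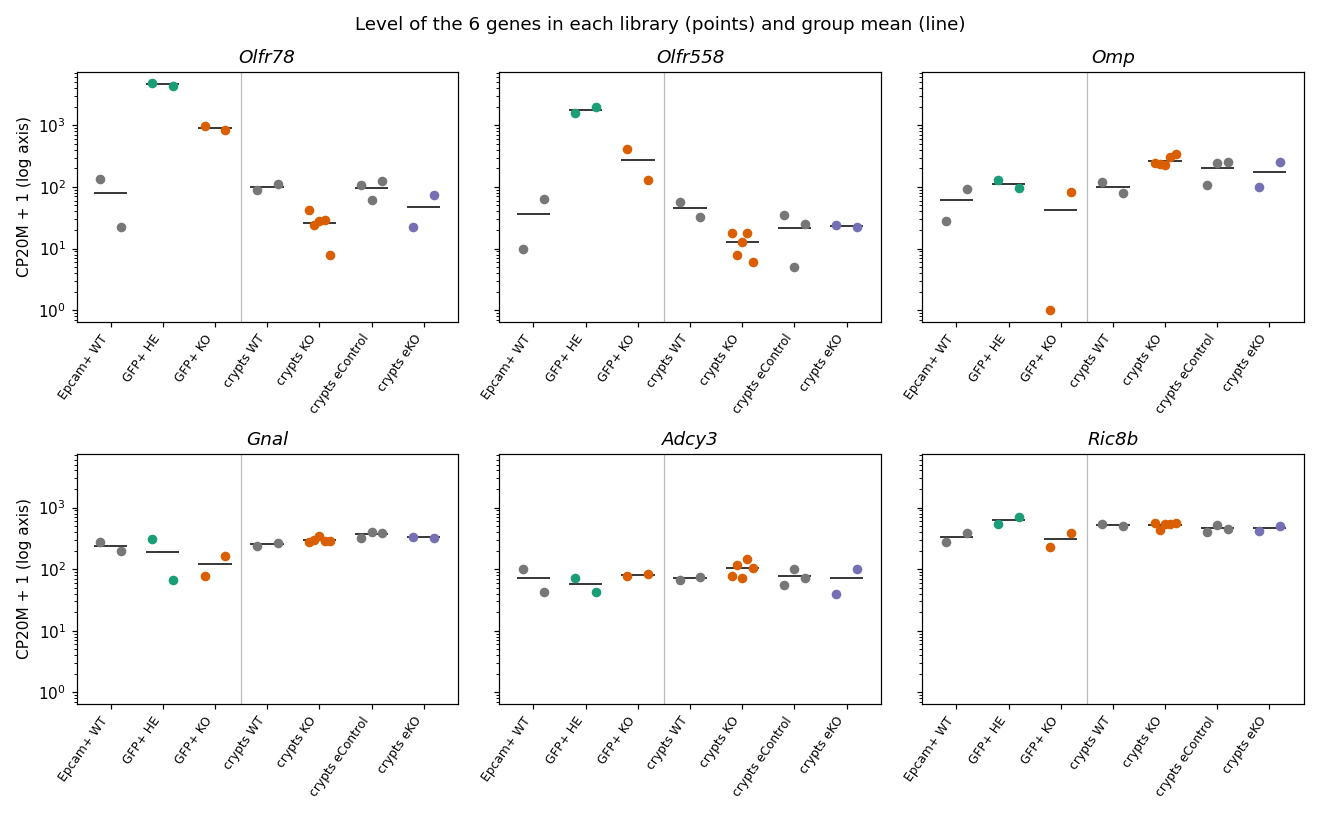
Levels of the 6 genes as CP20M + 1 on a log axis, with 1 point per library and a line at the group mean, for the 3 groups of sorted cells and the 4 groups of crypts. *Olfr78* and *Olfr558* stand at 1588 to 4822 CP20M in the HE pools and at 135 or less in every Epcam+ve and crypt library, while *Gnal*, *Adcy3* and *Ric8b* stay within 39 to 707 CP20M in all 18 libraries.

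Per kilobase of exon the receptors were similarly abundant in the HE pools, at 764 ± 49.3 CP20M per kb for *Olfr78* and 592 ± 99.1 for *Olfr558* (SD, n = 2). There were 32.9 and 45.8 CP20M of *Olfr558* per 100 CP20M of *Olfr78* in HE pools, 42.3 and 15.3 in KO pools, 28.8 to 63.6 in WT crypts, 30.4 to 71.4 in KO crypts and 6.56 to 32.4 in eControl crypts. The ratio in the library labelled eKO 2 was 28.8, and in eKO 1 it was 110. In the Epcam+ve samples, with 1 to 15 reads per gene, it ran from 6.67 to 295. The range of each group overlapped that of the HE pools except in eControl crypts, whose highest ratio lay just below the lower HE pool.

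In the KO pools both receptors were lower than in the HE pools. *Olfr78* had 977 and 837 CP20M, from 26 and 72 reads, a mean of 907 ± 99.0 (SD, n = 2) that was 19.7% of the HE mean. *Olfr558*, the neighbour of the gene that carries the cassette, had 413 and 128 CP20M, from 11 reads in each pool, a mean of 270.5 ± 202 (SD, n = 2) that was 15.0% of the HE mean. The pools of the 2 genotypes did not overlap for either gene. Whether the cassette acts on its neighbour was not tested. Of the 6 genes, 4 lay lower without overlap (*Olfr78*, *Olfr558*, *Omp* and *Ric8b*) and 1 higher (*Adcy3*), where 25.5% and 8.73% of all genes did. For *Omp* and *Adcy3* the separation rests on few reads in KO pool 1. That pool had 0 reads of *Omp*, which allow up to 113 CP20M, against 94 in HE pool 2. It had 2 reads of *Adcy3*, giving 76 CP20M against 70 in HE pool 1.

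The log2 difference between KO and HE pools was -2.34 for *Olfr78* (SE 0.290, adjusted p = 0.401 by limma) and -2.90 for *Olfr558* (SE 0.550, adjusted p = 0.931 by limma). None (0%) of the 11892 genes tested, those over 40 CP20M in all 4 pools, was called at an adjusted p under 0.05 by limma or by the quasi-likelihood test of edgeR, and 503 had an unadjusted p under 0.05 by limma. DESeq2 on the recovered reads called 3 genes lower, 0.0252% of those tested, and both receptors were among them, with an adjusted p of 0.00350 for *Olfr78* and 0.0249 for *Olfr558*. The calls also turned on single pools: both receptors were called by limma without KO pool 1, as were 1.9% of genes in the lower direction, and without KO pool 2, as were 0.741%, with log2 differences of -2.45 and -2.23 for *Olfr78* and -3.70 and -2.09 for *Olfr558*. In these fits, as in all those that leave 1 library in a group, the spread comes from the other libraries and the lone one is assumed to vary like them. By the criterion of the study's methods, under which means must lie further apart than 2 times the average of the SDs and by more than 1.5-fold, *Olfr78*, *Olfr558* and *Ric8b* were among the genes lower in KO pools, as were 9.98% of all genes tested.

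The KO pools also differed from the HE pools in the markers of the sorted cells. *Chga*, the granule protein chromogranin A, had 242823 and 304540 CP20M in HE pools and 168049 and 107136 in KO pools, a mean of 50.3% of that in HE pools, and the 6 enterochromaffin markers, those of the serotonin-making cells, summed to 155099 and 191516 against 119619 and 60240. The 4 markers of L cells, which make the hormones Pyy and GLP-1, did not follow this order, with sums of 8873 and 1590 in HE pools and of 3832 and 5695 in KO pools. The 7 goblet cell markers summed to 148437 and 67369 in HE pools and to 62440 and 333622 in KO pools. In the Epcam+ve samples they summed to 348939 and 298515, a range that holds KO pool 2. The part of these markers in the receptors' difference was not tested. Per 1000 CP20M of *Chga*, *Olfr78* stood at 19.9 and 14.5 in HE pools and at 5.81 and 7.81 in KO pools, and *Olfr558* at 6.54 and 6.61 against 2.46 and 1.19, so both receptors were also lower relative to *Chga*, without overlap between the genotypes.

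Set beside the Epcam+ve samples, which the HE comparison shares, the KO pools were still higher for both receptors. The ratio of means was 11.6 for *Olfr78* and 7.62 for *Olfr558*, and the log2 differences were 3.77 (SE 0.763, adjusted p = 0.107 by limma) and 2.71 (SE 0.950, adjusted p = 0.235 by limma). In this comparison limma called 0 of 15779 genes (0%), with 2925 at an unadjusted p under 0.05, edgeR called 31 and DESeq2 called 238. DESeq2 called *Olfr78* (adjusted p = 4.29e-05), as did 1.43% of the genes tested in this direction, and *Olfr558* was called by none of the alternatives run. Without Epcam+ve sample 1, KO pool 1 or KO pool 2, *Olfr78* was called by limma as well, with log2 differences of 3.66 to 4.88, beside 1.07%, 0.704% and 2.25% of genes called higher.

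**Figure D2:**
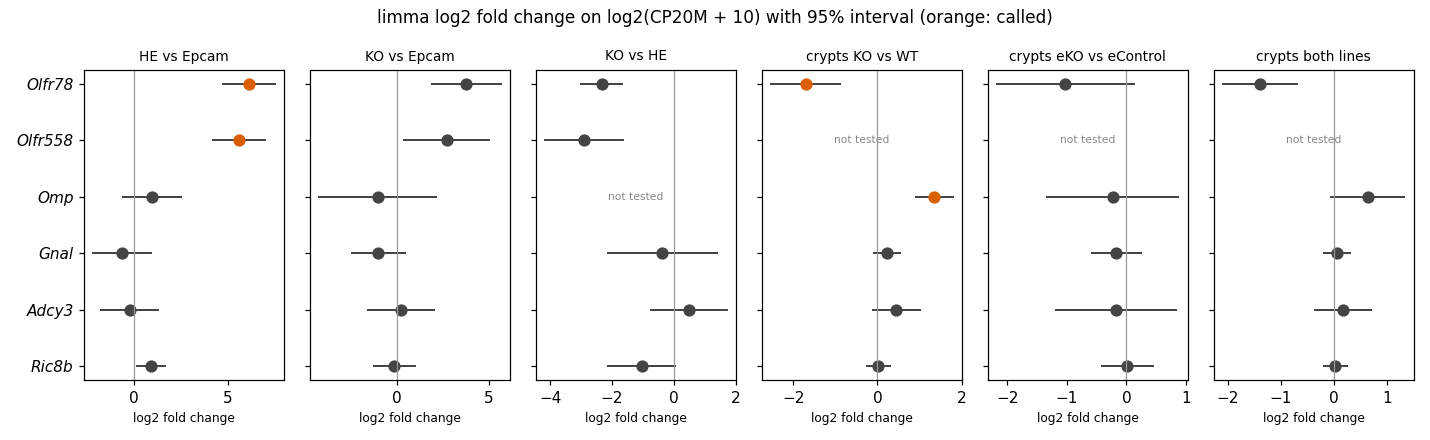
Log2 fold changes of the 6 genes on the log2(CP20M + 10) scale, by limma, with 95% intervals, in 6 comparisons, each with an axis of its own range. Orange points passed the threshold of the comparison, which were *Olfr78* (6.11) and *Olfr558* (5.60) in HE pools against Epcam+ve samples and *Olfr78* (-1.71) and *Omp* (1.35) in KO against WT crypts.

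**Figure D3:**
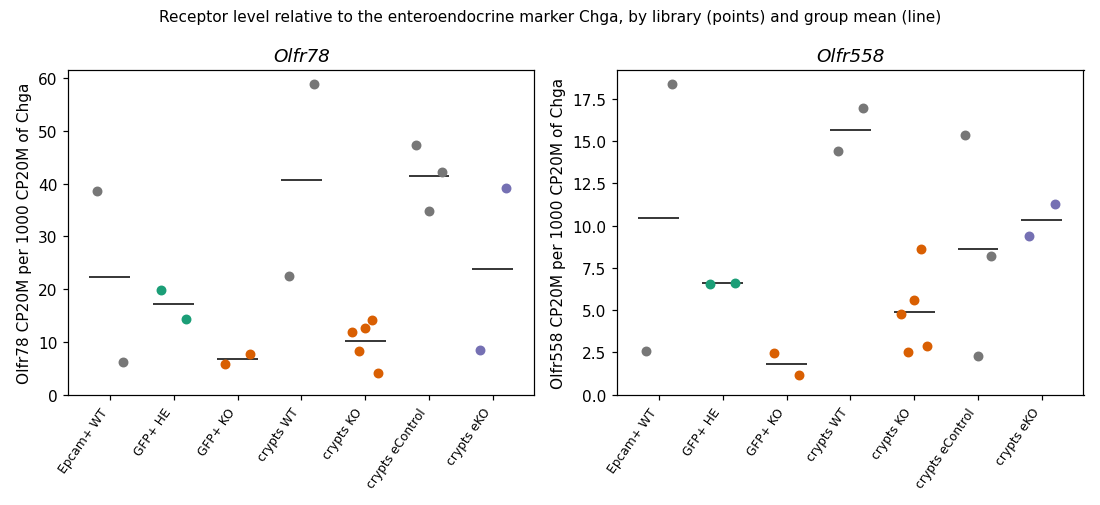
*Olfr78* and *Olfr558* as CP20M per 1000 CP20M of *Chga*, with 1 point per library and a line at the group mean. The KO pools lie at 5.81 and 7.81 for *Olfr78*, below the HE pools at 14.5 and 19.9, and the KO crypts at 4.05 to 14.2, below the WT crypts at 22.6 and 58.9.

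In whole crypts, where enteroendocrine cells are rare, *Olfr78* was low and fell further in KO mice. WT crypts had 88 and 111 CP20M, from 33 and 49 reads, and KO crypts 42, 23, 27, 28 and 7, from 3 to 15 reads. The KO mean of 25.4 ± 12.5 (SD, n = 5) was 25.5% of the WT mean of 99.5 ± 16.3 (SD, n = 2), and no KO library reached a WT library. The log2 difference was -1.71 (SE 0.376, adjusted p = 0.0199 by limma), which passed the threshold for crypts (adjusted p up to 0.2, fold change above 1.5). *Olfr78*, lower, and *Omp*, higher, were the 2 members called of 5 tested, where 9.48% of 15975 genes were called and 1.53% were called lower. Without WT mouse 2 the adjusted p was 0.227 by limma, with a log2 difference of -1.56. The enteroendocrine markers summed to 7483 and 13312 CP20M in WT crypts and 5762 to 10503 in KO crypts, which overlapped. Of the 10 markers tested, *Chgb* (by 0.61) and *Cpe* were called lower and none higher. *Chga*, at a log2 difference of -0.21, was not called. The part of these cells in the *Olfr78* difference was not tested, and relative to *Chga* the KO crypts, at 4.05 to 14.2 CP20M of *Olfr78* per 1000, stayed below the WT crypts, at 22.6 and 58.9.

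In the epithelial line, eControl crypts had 105, 61 and 124 CP20M of *Olfr78*, the library labelled eKO 1 had 21 and that labelled eKO 2 had 73. The ranges overlapped through eKO 2. All 6 genes overlapped between these groups, where 7.58% of genes lay higher and 2.79% lower in eKO crypts without overlap. With the library labelled eKO 2 set aside, eKO 1 lay below every eControl library for *Olfr78*, *Omp* and *Adcy3*, as it did for 26.1% of genes. The log2 difference of -1.02 (SE 0.489, adjusted p = 1.00 by limma) had a 95% interval of -2.17 to 0.12, and 0 of 15401 genes (0%) were called by limma, with 127 at an unadjusted p under 0.05, 0 by edgeR and 6 by DESeq2. Without the library labelled eKO 2 the log2 difference was -1.73, and without eKO 1 it was -0.31. Whether the loss differed between the lines was tested as an interaction, which gave a log2 difference of 0.69 (adjusted p = 0.702 by limma) with both eKO libraries and -0.02 without the library labelled eKO 2. The interaction was called for 0.0304% of 16447 genes and for none of the members tested.

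Over both lines together, permuting the genotype labels within each line, the mean within-line difference of *Olfr78* was -1.37 on the log2 scale (exact two-sided permutation test, 210 arrangements, p = 0.00952, not adjusted over the 6 genes tested). Without the library labelled eKO 2 it was -1.72 (p = 0.0119 by the same exact test). In the fit across all genes with the line as a covariate it was -1.40 (SE 0.324, adjusted p = 0.496 by limma), where 4 of 16447 genes (0.0243%) were called and *Olfr78* was not one of them. Without either of the eKO libraries it was called, with an adjusted p of 0.0669 without eKO 1 and 0.0984 without eKO 2, both by limma, beside 0.769% and 0.177% of genes called lower. DESeq2 called it with all libraries (log2 difference -1.59, adjusted p = 0.0542), beside 0.128% of genes called lower. Relative to *Chga*, which is a choice made after the data were seen, the within-line difference of *Olfr78* was -1.23 (exact permutation test, p = 0.00952), and -1.68 without the library labelled eKO 2 (p = 0.0119 by the same exact test).

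In the order of its group means *Olfr78* ran from HE pools to KO pools to WT crypts, with ranges apart at both steps, and then to eControl crypts (96.7 ± 32.3, SD, n = 3), Epcam+ve samples (78 ± 80.6, SD, n = 2), eKO crypts (47 ± 36.8, SD, n = 2) and KO crypts, where each range overlapped the one before it.

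*Olfr558* in crypts did not pass the filter for the fit across genes in any crypt comparison. It had 56 and 32 CP20M in WT crypts and 17, 7, 12, 17 and 5 in KO crypts, from 2 to 7 reads, so that the ranges were apart. Fitted with no filter, it was called lower in KO crypts (log2 difference -1.33, adjusted p = 0.129 by limma), beside 0.427% of genes. In the epithelial line it had 34, 4 and 24 CP20M in eControl crypts and 23 and 21 in eKO crypts, within the range of the controls. The order of its group means was HE pools, KO pools, WT crypts, Epcam+ve samples, eKO crypts, eControl crypts and KO crypts, and the ranges of neighbours overlapped from WT crypts on. The mean within-line difference was -0.56 (exact two-sided permutation test, p = 0.229), and without eControl mouse 2, which had 2 reads of the gene, it was -0.80 (p = 0.00794 by the same exact test). Without the library labelled eKO 2 it was -0.53 (p = 0.310 by the same exact test). The p of 0.00794 was the smallest that its 126 arrangements allow, and KO mice 2 and 5, also with 2 reads, were kept. In the other 18 of the 19 alternatives run, p by this exact test stayed above 0.05, at up to 0.437. In total 2 of the 6 genes (*Olfr78* and *Olfr558*) lay lower in KO than in WT crypts without overlap and 2 higher (*Omp* and *Gnal*), where 13.1% and 18.2% of genes did.

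Most odorant receptor genes are silent outside the nose, so the other 1353 rows of this family, left of 1356 when *Olfr78*, *Olfr558* and *Olfr560* are set aside, show the background against which low values are read. Between 30 and 62 rows of the family had any read in the sorted libraries and 54 to 220 in the crypts of the epithelial line. In crypts of the Olfr78-GFP line reads fell on 507 and 810 rows in WT mice and on 1162, 839, 702, 902 and 385 rows in KO mice, at a similar depth. Averaged over 1343 rows that never reached 40 CP20M in 2 libraries of a table, the background was 0.0536 to 0.171 CP20M per kb in the epithelial line, 0.605 and 1.20 in WT crypts and 0.418 to 4.00 in KO crypts.

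Over the exon length of *Olfr78* that background amounts to 2.52 to 24.2 CP20M in KO crypts, and the observed values were 1.74 to 4.69 times as large. For *Olfr558* the observed values in KO crypts were 1.40 to 4.14 times the background. Of the CP20M of all 1356 rows, *Olfr78* and *Olfr558* together held 73.5% and 78.7% in HE pools, 46.1% and 35.1% in KO pools, 5.39% and 2.87% in WT crypts and 0.376% to 1.00% in KO crypts. In WT crypts the values were 15.3 and 24.1 times the background for *Olfr78* and 8.77 and 30.4 times for *Olfr558*, in eControl crypts 104 to 239 and 13.5 to 130 times, and in the GFP+ve pools at least 144 times for both. With the background taken off each library, a choice made after the data were seen, the within-line difference of *Olfr78* in crypts was -1.57 (exact permutation test, p = 0.00952) and that of *Olfr558* -0.71 (exact permutation test, p = 0.124). Without the library labelled eKO 2 these were -1.92 (p = 0.0119) and -0.68 (p = 0.214), both by the exact permutation test.

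**Figure D4:**
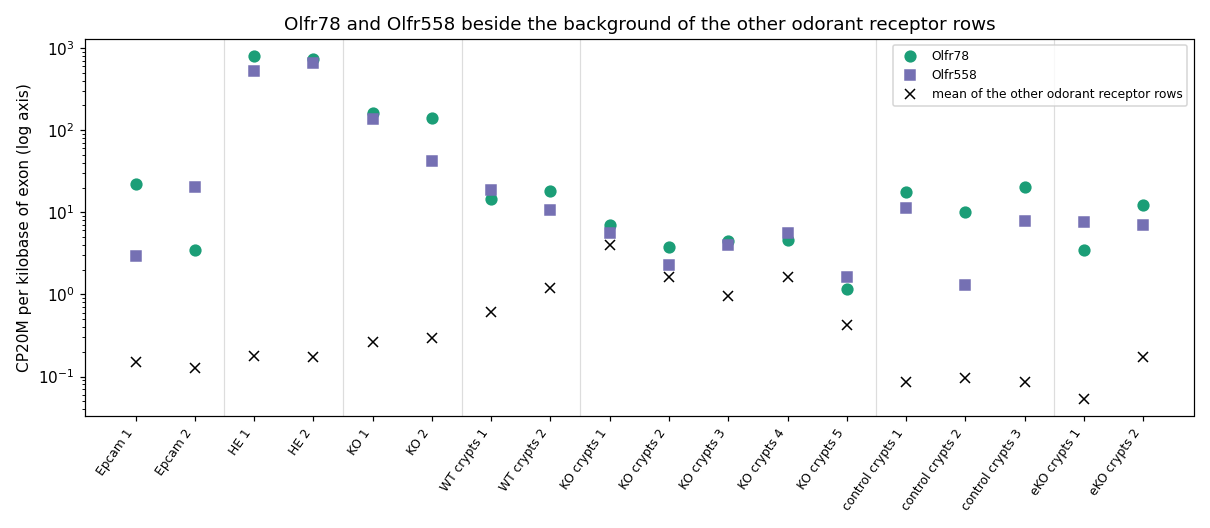
CP20M per kilobase of exon, on a log axis, of *Olfr78* (circles), *Olfr558* (squares) and the mean over 1343 other odorant receptor rows (crosses) in each library, where control crypts are those of the eControl mice. The crosses rise from 0.127 to 0.292 in sorted libraries to as much as 4.00 in KO crypts 1, where *Olfr78* is 1.74 times and *Olfr558* 1.40 times as high.

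Within 500 kb of *Olfr78* lie 54 odorant receptor rows, and in GFP+ve cells most of the reads fell on 3 of them. The HE pools held 749 reads on *Olfr78*, 289 on *Olfr558* and 134 on *Olfr560*, against 20 on the other 51 rows together. Among these 51, the rows between and beside the pair had few reads in the HE pools: 4 on *Olfr557*, 3 on *Olfr33*, 6 on *Olfr559* and 2 on *Olfr561*. KO crypts showed another pattern, with 48 reads on *Olfr78*, 22 on *Olfr558* and 371 spread over the other 51 rows.

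*Olfr560* moved with *Olfr78*. It had 54 and 21 CP20M in Epcam+ve samples, 1117 and 494 in HE pools and 151 and 152 in KO pools, and 11.2 to 23.2 CP20M per 100 of *Olfr78* in the 4 GFP+ve pools. Since the genes share exons on the same strand, reads of one may be counted for the other, and the 2 rows are not independent. Over the 13 libraries of the table that holds the sorted cells, *Olfr560* was also the gene most like *Olfr78* (Pearson r = 0.977 of log2(CP20M + 10)), followed by *Tubb4a* (0.967), *Tenm4* (0.967), *Gdf11* (0.966) and *Lgi4* (0.965), among 18294 genes. Those most like *Olfr558* were *C77370* (0.990), *Cfap20* (0.979), *Fxyd3* (0.972), *Fjx1* (0.972) and *Lgi4* (0.972). *Olfr558* ranked 184th for *Olfr78* (r = 0.929) and *Chga* 59th (r = 0.948). These correlations largely follow the contrast between GFP+ve pools and all other libraries, and the points share tissue and table.

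**Figure D5:**
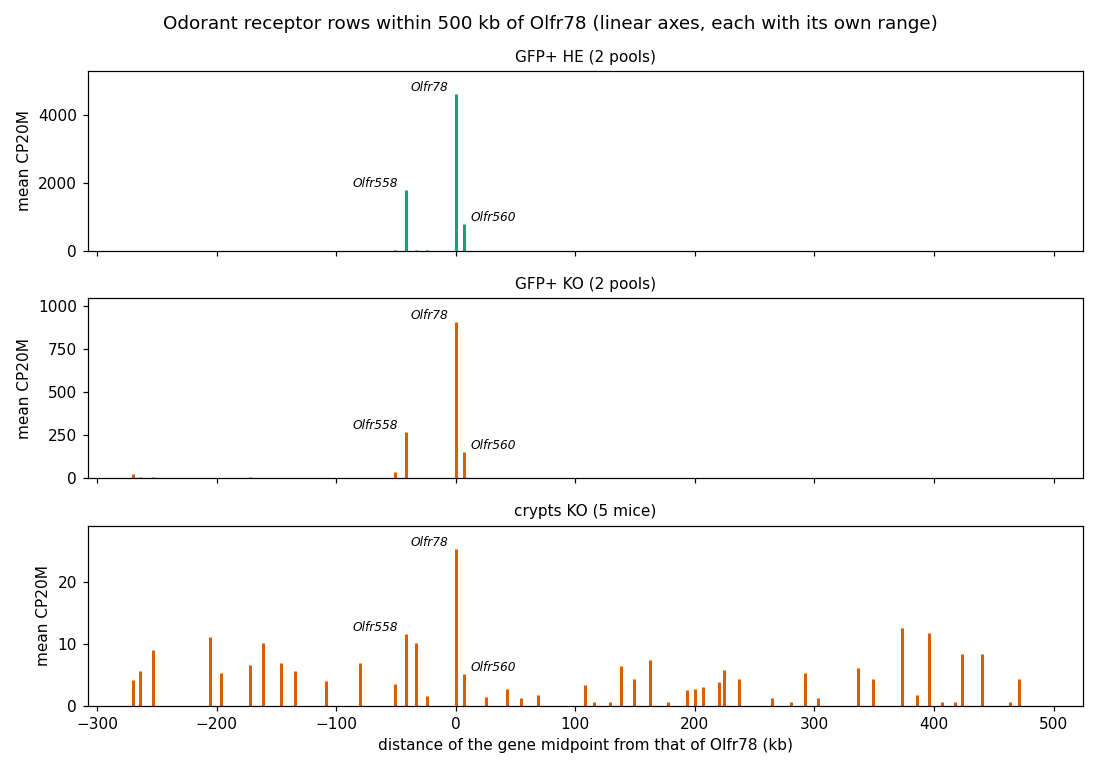
Mean CP20M of each odorant receptor row within 500 kb, by the distance of its midpoint from that of *Olfr78* in kb, in HE pools, KO pools and KO crypts, with linear axes of different range. In both kinds of pool most of the signal stands on *Olfr78*, *Olfr558* and *Olfr560*, whereas in KO crypts low values are spread over the whole window.

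Of the other odorant receptor rows, 10 besides *Olfr560* reached 40 CP20M in at least 2 libraries of 1 table. *Olfr1372-ps1*, a pseudogene, was the 1 of these that was also higher in all GFP+ve pools than in every other library, with 36 and 21 CP20M in Epcam+ve samples, 150 and 161 in HE pools, 188 and 70 in KO pools and at most 36 in crypts. *Olfr77* had 412 and 360 CP20M in Epcam+ve samples, 173 and 294 in HE pools and 188 and 221 in KO pools. *Olfr165* ran from 0 to 35 CP20M in sorted libraries and from 26 to 193 in crypts. *Olfr56*, *Olfr1489*, *Olfr727*, *Olfr920*, *Olfr46*, *Olfr784* and *Olfr635* stayed at or below 117 CP20M in every library.

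*Gnal* (ENSMUSG00000024524, chromosome 18, bases 67088216 to 67226792, plus strand), the alpha subunit of olfactory neurons, was not enriched in GFP+ve cells. It had 278 and 196 CP20M in Epcam+ve samples, 311 and 67 in HE pools and 76 and 163 in KO pools, from 2 to 31 reads. The HE pools spanned both other groups, and the KO pools lay below the Epcam+ve samples, with a mean of 50.4% of theirs, but the difference was not called (adjusted p = 0.388 by limma). Crypts had more reads on it, and levels of 235 and 270 CP20M in WT, 271 to 349 in KO, 324 to 396 in eControl and 324 and 330 in eKO mice. The log2 difference between HE pools and Epcam+ve samples was -0.63, with a 95% interval of -2.17 to 0.90, and that between KO and WT crypts was 0.23, with an interval of -0.07 to 0.54. The related alpha subunit *Gnas*, which encodes the stimulatory G protein of most tissues, was at least 21.5 times as high as *Gnal* per kilobase of exon in each of the 18 libraries, with a median of 38.5 times in sorted cells and 26.1 times in crypts. Of the exon bases of *Gnal*, 852 overlap *Mppe1* on the other strand, and the use of strand in counting is not given in the sources used here.

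*Ric8b* (ENSMUSG00000035620, chr10:84917616-85018337, plus strand) was the partner gene with the most reads. It had 278 and 381 CP20M in Epcam+ve samples, 541 and 707 in HE pools and 226 and 384 in KO pools. The HE pools lay above both other groups without overlap, with a mean 1.89 times that of the Epcam+ve samples, but the log2 difference of 0.91 (SE 0.323) did not pass the threshold (adjusted p = 0.0764 by limma, 95% interval 0.17 to 1.64). Between KO and HE pools it was -1.04 (adjusted p = 0.931 by limma, 95% interval -2.13 to 0.04). In crypts *Ric8b* was steady, at 501 and 533 CP20M in WT, 434 to 567 in KO, 402 to 523 in eControl and 420 and 504 in eKO mice, and its log2 difference over both lines was 0.02, with an interval of -0.20 to 0.23, and -0.03 without the library labelled eKO 2. Its paralogue *Ric8a*, which serves other alpha subunits, stood at 0.521 to 1.97 times the level of *Ric8b* per kilobase.

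*Adcy3* (ENSMUSG00000020654, chr12:4133103-4213525, plus strand) was low throughout. It had 99 and 42 CP20M in Epcam+ve samples, 70 and 41 in HE pools and 76 and 82 in KO pools, from 2 to 11 reads. Crypts had 67 and 73 CP20M in WT, 72 to 143 in KO, 55 to 100 in eControl and 39 and 101 in eKO mice, and all neighbouring groups in the order of means overlapped. Of the comparisons of all libraries none called it, whereas without the library labelled eKO 2 its interaction of line and genotype was called (log2 difference -1.22, adjusted p = 0.130 by limma), beside 26.3% of all genes. The log2 difference between HE pools and Epcam+ve samples was -0.24, with a 95% interval of -1.75 to 1.28. Of the summed level of the 10 adenylyl cyclase genes per kilobase, *Adcy3* made up 0.904% to 2.69%, and the leading cyclase was *Adcy6* in 16 libraries and *Adcy2* in HE pool 2 and KO pool 1. Of its exon bases 22.1% overlap *Cenpo* on the other strand.

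*Omp* (ENSMUSG00000074006, chr7:98143359-98145502, minus strand) is a gene of 1 exon inside an intron of *Capn5*, a calpain protease gene on the same strand, 13 bases from the nearest *Capn5* exon and 4593 kb from *Olfr78*. It was low in sorted cells, with 27 and 93 CP20M in Epcam+ve samples, 127 and 94 in HE pools and 0 and 82 in KO pools, where 0 reads in KO pool 1 allow up to 113 CP20M. Its level was therefore not shown to differ among the sorted groups.

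In crypts *Omp* was higher in KO than in WT mice of the Olfr78-GFP line. WT crypts had 118 and 80 CP20M and KO crypts 241, 234, 224, 300 and 338, means of 99 ± 26.9 (SD, n = 2) and 267 ± 49.4 (SD, n = 5), without overlap. The log2 difference was 1.35 (95% interval 0.92 to 1.79, adjusted p = 0.00526 by limma), and it was called with each library left out in turn, beside 7.95% of genes called higher in this comparison. The epithelial line did not show it: eControl crypts had 107, 243 and 251 CP20M, the library labelled eKO 1 had 98 and that labelled eKO 2 had 252, a log2 difference of -0.23 with a 95% interval of -1.34 to 0.87. Without the library labelled eKO 2 it was -0.87. In this line the libraries numbered mouse 1, labelled HE/WT and HE/HO, had nearly the same value, as did those numbered mouse 2, both labelled WT/HO. The interaction of line and genotype was -1.59 (adjusted p = 0.558 by limma). Without the library labelled eKO 2 it was -2.22 and without eControl mouse 1 it was -1.96, and *Omp* was then called (adjusted p = 0.0451 and 0.105 by limma), beside 26.3% and 3.76% of all genes. Over both lines the within-line difference was 0.56 (exact two-sided permutation test, p = 0.205), and 0.24 without the library labelled eKO 2 (p = 0.667 by the same exact test). In the fit over both lines *Omp* was not called with all libraries (0.63, adjusted p = 0.646 by limma) and was called without eKO 1 (1.03, adjusted p = 0.0495 by limma), beside 6.15% of genes called higher.

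*Capn5*, the gene around *Omp*, ran from 1811 to 2189 CP20M in WT and KO crypts and from 2123 to 2822 in those of the epithelial line. Per 100 CP20M of *Capn5* there were 4.42 and 6.39 CP20M of *Omp* in WT crypts and up to 17.2 in KO crypts, with no overlap, so *Omp* was higher relative to its host gene as well. The background of odorant receptor rows over the length of *Omp* would give 0.896 to 8.59 CP20M in KO crypts, 28.1 to 377 times less than observed. Neither value measures unspliced *Capn5* RNA, whose reads can also be counted on *Omp*. The part of such reads in the *Omp* level and difference was not tested. Other markers moved with the same libraries. The 7 colonocyte markers summed to 136269 and 148618 CP20M in WT crypts and 97791 to 124421 in KO crypts, a sum that *Car1*, a carbonic anhydrase, dominates, whereas 5 of the 7 genes had a positive log2 difference, with 1 called lower (*Slc37a2*) and 1 higher (*Ceacam20*). The 7 smooth muscle markers summed to 471 and 501 against 560 to 913, and the 7 leukocyte markers to 814 and 1000 against 329 to 662. Their part in the *Omp* difference was not tested. The other olfactory neuron markers were at 25 CP20M or less in every crypt library, and *Cnga2*, the channel subunit that defines the olfactory response, had 0 reads in all crypts of the epithelial line and at most 4 CP20M in those of the Olfr78-GFP line.

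The rest of the olfactory cascade was described from lists of genes. Of 20 symbols for channel, transporter, calmodulin and kinase genes, 19 were in the tables and 12 were tested in HE pools against Epcam+ve samples. *Pde1c*, *Grk3* and *Camk2b* were called higher, 3 of 12 genes beside 1.58% of all. None was called lower, beside 28 of all 16355 genes tested. The median log2 difference was 0.40 against -0.05 over all genes tested. *Pde1c*, the phosphodiesterase of olfactory cilia, had 175 to 269 CP20M in Epcam+ve samples and 1750 to 2307 in HE pools. *Grk3*, a receptor kinase that desensitises odorant receptors, had 155 to 188 and 1519 to 2054, and *Camk2b*, a calmodulin-dependent kinase, 108 to 165 and 3326 to 3814. The channel subunits *Cnga2*, *Cnga4* and *Cngb1* and the chloride channel *Ano2* had 0 reads in all sorted libraries, and *Gng13*, the gamma subunit that pairs with Golf, had 0 reads in the 4 GFP+ve pools and 11 to 63 CP20M in Epcam+ve samples.

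The G protein subunits and cyclases that were called were others than those of the olfactory cascade. Of 13 alpha subunit and chaperone genes tested, 2 were called higher in HE pools, *Gnao1* by 6.09 and *Gnaz* by 5.64 on the log2 scale (adjusted p of at most 0.000809 by limma), both alpha subunits of the Gi/o family. *Gnao1* had 42 to 72 CP20M in Epcam+ve samples, 4361 to 4546 in HE pools and 1465 to 3417 in KO pools, and *Gnaz* 0 to 18, 771 to 881 and 76 to 221. *Gnas*, by contrast, was at 6935 to 7384, 6375 to 7238 and 6798 to 6871 CP20M, with a log2 difference of -0.08 between HE pools and Epcam+ve samples and a 95% interval of -0.46 to 0.31. Of 11 beta and gamma subunits 1 was called higher, *Gng4* by 5.19, with 27 to 31 CP20M in Epcam+ve samples and 1266 to 1574 in HE pools.

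Of 6 cyclases other than *Adcy3* that were tested, *Adcy1* and *Adcy2* were called higher in HE pools, by 5.50 and 5.04. *Adcy2* had 21 to 63 CP20M in Epcam+ve samples, 1542 to 1574 in HE pools and 442 to 1728 in KO pools, and *Adcy1* 0 to 11, 534 to 783 and 175 to 714. Of 14 phosphodiesterases, *Pde11a* was called higher by 4.91 besides *Pde1c*, at 52 to 90 CP20M in Epcam+ve samples and 1876 to 2974 in HE pools. None of the 14 cAMP effectors, the protein kinase A, Epac and CREB genes, and none of the 4 tested genes of receptor trafficking and choice was called, with medians of 0.97 and 0.90. The highest of these in GFP+ve pools were *Prkar1a* and *Prkacb*, subunits of protein kinase A, at 6321 to 6329 and 2026 to 2614 CP20M in HE pools, and *Reep6* and *Kdm1a*, at 3821 to 4361 and 2141 to 2187. *Prkar1a* (1.88) and *Reep6* (1.78) passed the adjusted p of the threshold, at 0.000284 and 0.000584 by limma, but not its fold change. Of all 16355 genes tested in this comparison, 1.58% were called higher in HE pools and 28 genes were called lower. No gene of these lists was called lower, which says little, since lower calls were so few among all genes. *Gnaz*, *Adcy1* and *Gng4* passed the filter through the HE pools alone, so they could not have been called lower.

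Between KO and HE pools and in the crypts of the epithelial line limma called none of these genes. In KO against WT crypts it called 1 gene of each of 6 lists higher and none lower. Those called were *Camk2b* (0.82), *Reep1* (0.80), *Gna14* (0.63), *Gnb4* (0.59), *Adcy5* (0.61) and *Pde4c* (1.10). Of all genes tested there, 7.95% were called higher and 1.53% lower.

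Among receptors of short-chain fatty acids and related ligands, *Ffar2* had 322 and 483 CP20M in Epcam+ve samples, 1773 to 1787 in HE pools and 570 to 1728 in KO pools, and was the most abundant of the 4 genes listed. Its log2 difference between HE pools and Epcam+ve samples, 2.15 (SE 0.267), just missed the threshold (adjusted p = 0.00135 by limma). *Hcar1* had 0 reads in both Epcam+ve samples and 150 and 174 CP20M in HE pools. *Ffar3* and *Hcar2*, the others listed, stayed at 27 and 70 CP20M or less in sorted libraries. None was called in any comparison, but not all passed the filter: 2 of the 4 were tested in HE pools against Epcam+ve samples and 1 in each other comparison.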

How the data were processed

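RNA was sequenced from sorted colon epithelial cells (6 libraries) and isolated colon crypts (12 libraries), with on-column DNase digestion per the study's methods. The authors used STAR for mapping to GRCm38 and HTSeq for counting over genes. The use of strand is not given in the sources used here. The deposited values are a coverage-like signal, or score, per gene, namely reads brought to a library total of 20000000 and then rounded up (CP20M). Reads were recovered from the value steps, whole for 99.8% to 100% of values. Of the 52636 rows of each table, those that passed the filter of a comparison were fitted with limma 3.58.1 (R 4.3.3) on log2(CP20M + 10), with Benjamini-Hochberg adjustment. Filters were 40 CP20M (a CPM of 2) in at least 2 libraries, or over 40 in all pools for KO against HE. Thresholds were an adjusted p under 0.001 with a log2 fold change beyond 2 against Epcam+ve samples, an adjusted p under 0.05 between KO and HE pools, and in crypts an adjusted p up to 0.2 with a fold change above 1.5.

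Members of each group were compared within and across both lines, the latter with line as covariate and by exact permutation within lines. Count tests (edgeR 4.0.16, DESeq2 1.42.0) ran on recovered reads as alternatives, beside other pseudocounts, scalings, filters, a replicate block and each library left out. In simulated data limma recovered 75.8% of genes changed by 3 and 2.08% of genes changed by 1.5 on the log2 scale in HE against Epcam+ve, over 15646 genes. For KO against HE it recovered 93.4% and 38.9%, and for crypts of both lines 100% and 99%. False calls numbered 0, 4 and 19 in this order. Each simulated gene had the spread of the trend at its level and not its own, so these shares need not hold for the real libraries. Groups follow the titles. Crypt replicates are separate mice and pools separate mice, but the Epcam+ve samples share 1 mouse, so their spread may be technical. Gene models were those of GENCODE M21, matched for 52403 IDs.

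The 6 genes and all lists were chosen with earlier results of these data known. Named besides them were odorant receptor rows with 40 CP20M in at least 2 libraries of 1 table, the rows beside the pair, the 5 genes most correlated with each receptor, list genes past a threshold and otherwise the 2 highest in GFP+ve pools, and *Chga*, *Chgb*, *Tph1* and *Pyy*. *Capn5*, the host of *Omp*, was added after the values were seen. A count of 0 was read as up to 3 reads, which covers counting error only.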

Additional observations from a re-analysis of the deposited data

Results flagged for a closer look

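*Ric8b* in KO crypts had 1 library apart from the others. KO mouse 2 had 434 CP20M and the other KO mice 532 to 567, and its gap to the nearest was larger, relative to the range, than Dixon's critical value of 0.710 for 5 libraries. Of the 12 groups of values tested in this way it was the 1 flagged, and at the 95% level chance alone flags some. That library had the fewest reads on genes of all crypt libraries, 6175300, which gave 134 reads of *Ric8b*.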

How the results depend on the processing

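How many genes were called turned on the test and on single libraries. In HE pools against Epcam+ve samples, where 287 genes were called, the count was 77 with a pseudocount of 1, 522 with a pseudocount of 40, 747 by edgeR, 691 by DESeq2, 0 with no trend of the spread, 523 with the replicate block and 317 to 1195 without 1 library. For KO pools against Epcam+ve samples it was 0, 31 by edgeR, 238 by DESeq2, 15 with no filter, 194 with the block and 153 to 1753 without 1 library. For KO against HE pools it was 0, 8 by DESeq2, 2 with no filter, 0 with the block and 0 to 373 without 1 library. In crypts of both lines it was 4, 9 by edgeR, 38 by DESeq2, 0 with no trend, 27 with the block and 0 to 1134 without 1 library. For KO against WT crypts it was 1514, 854 with a pseudocount of 40 and 546 to 1684 without 1 library. For eKO against eControl it was 0, 6 by DESeq2, 13 with the block and 1 to 6 without 1 library. For the interaction it was 5, 3 with a pseudocount of 1 and 2 to 4296 without 1 library. By the criterion of the methods 1571 genes differed between KO and HE pools, and 2468 with a filter of 2 pools, a choice made after seeing the data. The cause of these shifts was not tested.

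Labels number the replicates but say nothing of a shared day or litter, and with 2 shared numbers per comparison, deviations of same-numbered libraries correlated at 0.0594 (HE and Epcam+ve), -0.0184 (KO and Epcam+ve), -0.190 (KO and HE), -0.0247 (KO and WT crypts) and 0.558 (eKO and eControl). The numbers were not taken to pair libraries. For eKO and eControl the correlation of 0.558 does not settle this choice, and with the replicate block 13 genes were called there, against 0 without it. With KO and HE numbers crossed, added after seeing the data, 85 genes were called.

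Both receptors kept their direction under every alternative run on the sorted cells, as did *Olfr78* in crypts of 1 line, where *Olfr558* was fitted with no filter only. *Olfr78* turned only in the interaction, which ranged from -0.0241 to 1.40 without 1 library. Signs turned for partner genes near 0. For KO pools against Epcam+ve samples *Omp* was 0.0515 by edgeR and -1.76 to 0.58 without 1 library, *Ric8b* 0.14 by edgeR, 0.10 by DESeq2 and -0.51 to 0.23, and *Adcy3* -0.29 to 0.77. For HE pools *Gnal* ranged from -1.66 to 0.40 and *Adcy3* from -0.77 to 0.30, and for KO against HE pools *Gnal* from -1.40 to 0.66. In crypts of both lines *Gnal* was -0.00090 by DESeq2, -0.0496 with no covariate for the line and -0.0439 to 0.0987 without 1 library, and *Ric8b* -0.0074 by edgeR, -0.028 by median-of-ratios, -0.0145 by DESeq2, -0.0265 with the block and -0.0265 to 0.0621. For KO against WT crypts *Ric8b* was -0.0422 by median-of-ratios, -0.0576 with the block and -0.0238 to 0.0866. For eKO against eControl *Ric8b* was -0.0206 by edgeR, -0.0184 by median-of-ratios, -0.0234 by DESeq2 and -0.12 to 0.14, *Omp* -0.87 to 0.41 and *Adcy3* -0.77 to 0.41. The interaction of *Ric8b* ranged from -0.14 to 0.12. Under permutation, *Gnal* was -0.0113 and *Ric8b* -0.0271 by median-of-ratios, relative to *Chga* without eKO 2 *Adcy3* was -0.114 and *Ric8b* -0.0046, and without 1 library *Gnal* was -0.0164 to 0.0799, *Adcy3* -0.16 to 0.43, *Ric8b* -0.0476 to 0.0811 and *Olfr558* -0.80 to -0.39.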
